A study of Mus musculus with 7 samples.

Results

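The mitochondrial ribosomal protein genes were examined for histone H3 lactylated at lysine 18 (H3K18La) at their promoters in the maturing mouse retina. A member was a gene whose symbol starts with Mrpl (large subunit) or Mrps (small subunit) followed by a digit and which had a peak annotated as the promoter of a protein-coding transcript. Where a gene had several, the 1 closest to the start of transcription was kept. This gave 50 members among 9956 protein-coding genes with a promoter peak, in a table of 108253 peaks. The marked DNA was captured by CUT&Tag, in which an antibody to the modified histone tethers an enzyme to chromatin so that the DNA next to the mark is released and sequenced. Retinas were of genotype C57Bl/6J, with no allele or treatment beyond that, and were taken at postnatal days 4, 10 and 28 (P4, P10 and P28) and dissociated into single cells with papain. There were 2 libraries of each of the ages P4 and P10 and 3 libraries of P28. The early ages thus have fewer libraries here than the replicates counted in the study's description of how peaks were selected. The study calls the replicates biological. Whether each came from 1 animal or a pool is not given in the sources used here, and p-values measure the spread between these libraries.

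Mitochondria keep a small genome that encodes core subunits of the respiratory chain, and they translate it on ribosomes of their own. Every protein of these ribosomes is encoded in the nucleus, made in the cytosol and imported. The large subunit joins amino acids and releases the nascent chain through an exit tunnel, and the small subunit reads the messenger RNA. Some of the proteins descend from bacterial ribosomal proteins, while others are found only in mitochondrial ribosomes. Photoreceptors pack their inner segments with mitochondria, although much of the glucose the retina consumes leaves it as lactate, the source of the histone mark measured here.

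The libraries differed in depth, which decides how well each member was measured. Reads in peaks numbered 295383 to 358971 at P4, 199970 to 660740 at P10 and 1615969 to 8274373 at P28. Of the normalised library size the authors divided by, 16.3% and 17.6% lay in peaks at P4, 36.1% and 52.1% at P10 and 42.4% to 57.1% at P28, so this share moved with age along with the values below. According to the labels, batch 2 consists of P28 replicate 1 alone. The tissue was checked with promoter peaks of cell type markers. All 6 photoreceptor markers listed had a peak, with a median of 1.53 RPKM at P4, 12.1 at P10 and 15.4 at P28. Their sum was 9.56 and 9.61 RPKM at P4, 75.9 and 69.65 at P10 and 68.6 to 105.5 at P28. This sum was also higher at P28, and its part in the members' changes was not tested. Of 7 markers of the inner retina and Mueller glia, 4 had a peak, with medians of 2.19, 4.14 and 2.84 RPKM at P4, P10 and P28. The sum over the latter 4 peaks was 10.1 and 8.67 RPKM at P4 and 18.2 to 22.2 at P28, so it was higher at P28, as the members were, and its part in their changes was not tested. Of 10 markers of pigment epithelium, endothelium, microglia and blood, Best1, Cdh5, Cldn5 and Mitf had a promoter peak, with a median of 1.86 RPKM at P4, 0.239 at P10 and 0.829 at P28, while Csf1r, Cx3cr1, Pecam1, Ptprc, Rpe65 and Tyr had none. The sum over these 4 peaks was 8.001 and 10.65 RPKM at P4 and 3.83 to 5.62 at P28, so it was lower at P28, opposite to the members, and its part in their changes was not tested. In bulk chromatin, more cells of a type and more of the mark per cell cannot be told apart.

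Promoter sequences of the members were read from RefSeq promoters of the same assembly (GRCm38), each running from 250 bases before to 50 bases after a gene's start. RefSeq promoters were matched for 45 of the 50 members, the others being Mrpl15, Mrpl19, Mrpl38, Mrpl4 and Mrps28. In 44 of the 45 the RefSeq start lay inside the member's peak, the exception being Mrpl20. Of the matched promoters, 6 are printed 5′ to 3′ on the strand of the gene. Mrpl14 is shown because its rise was called in most settings of the analysis, Mrps2 and Mrpl22 because they had no read before P28, and Mrps26, Mrps11 and Mrps12 because they carry motifs or face another gene. Capitals mark the letters of an NRF1, ETS or YY1 motif on either strand. The windows lie at chr2:28467816-28468115 on the plus strand (Mrps2), chr17:45686099-45686398 plus (Mrpl14), chr11:58171414-58171713 plus (Mrpl22), chr2:130563507-130563806 plus (Mrps26), chr7:78782881-78783180 plus (Mrps11) and chr7:28741772-28742071 minus (Mrps12).
Mrps2: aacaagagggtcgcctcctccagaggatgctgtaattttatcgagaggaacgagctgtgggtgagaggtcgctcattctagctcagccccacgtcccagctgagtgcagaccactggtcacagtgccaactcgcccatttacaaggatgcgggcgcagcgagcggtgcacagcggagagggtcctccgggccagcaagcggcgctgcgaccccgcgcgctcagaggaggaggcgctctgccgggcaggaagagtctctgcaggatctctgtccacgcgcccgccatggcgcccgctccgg
Mrpl14: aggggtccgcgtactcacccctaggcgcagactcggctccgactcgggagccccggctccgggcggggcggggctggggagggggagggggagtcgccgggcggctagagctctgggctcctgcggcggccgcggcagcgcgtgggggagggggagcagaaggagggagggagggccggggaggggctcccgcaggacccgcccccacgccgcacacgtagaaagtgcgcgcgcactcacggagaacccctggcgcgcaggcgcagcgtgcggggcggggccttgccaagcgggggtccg
Mrpl22: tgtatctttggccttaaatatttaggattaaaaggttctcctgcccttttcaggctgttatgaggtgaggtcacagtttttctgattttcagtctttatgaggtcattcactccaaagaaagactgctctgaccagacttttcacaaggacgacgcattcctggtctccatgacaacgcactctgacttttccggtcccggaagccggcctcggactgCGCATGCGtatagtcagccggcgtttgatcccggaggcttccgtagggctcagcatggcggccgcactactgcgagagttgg
Mrps26: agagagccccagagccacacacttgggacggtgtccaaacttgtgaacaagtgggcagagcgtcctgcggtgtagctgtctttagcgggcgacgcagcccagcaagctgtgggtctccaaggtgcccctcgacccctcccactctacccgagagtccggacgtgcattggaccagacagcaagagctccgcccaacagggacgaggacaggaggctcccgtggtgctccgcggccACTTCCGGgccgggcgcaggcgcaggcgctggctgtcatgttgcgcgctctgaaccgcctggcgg
Mrps11: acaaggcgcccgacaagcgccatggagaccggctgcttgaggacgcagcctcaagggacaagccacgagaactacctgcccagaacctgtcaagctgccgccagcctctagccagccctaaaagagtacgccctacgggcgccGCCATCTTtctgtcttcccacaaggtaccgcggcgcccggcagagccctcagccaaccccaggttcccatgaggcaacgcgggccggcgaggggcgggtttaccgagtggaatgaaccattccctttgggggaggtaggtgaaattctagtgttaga
Mrps12: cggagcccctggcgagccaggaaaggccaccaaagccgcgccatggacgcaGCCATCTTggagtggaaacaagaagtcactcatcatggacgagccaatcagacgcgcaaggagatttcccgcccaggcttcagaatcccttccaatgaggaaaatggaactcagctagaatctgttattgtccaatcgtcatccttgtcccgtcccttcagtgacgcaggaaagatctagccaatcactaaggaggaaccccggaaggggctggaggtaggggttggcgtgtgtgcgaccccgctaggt

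These promoters hold no capitals in Mrps2 and Mrpl14, an NRF1 match in Mrpl22, an ETS match in Mrps26 and a YY1 match in each of Mrps11 and Mrps12. The letters searched were CGCATGCG for NRF1, a regulator of nuclear genes for mitochondrial proteins, CCGGAAGT for ETS factors such as GABP, AAGATGGC for YY1, GGGCGG for the GC box and CCAAT for NFY. Both strands were read, and no match of a motif overlapped a match of another in the members. NRF1 letters stood in 5 of 45 member promoters (11.1%), against 3.82% of the 7984 matched promoters of genes with a peak and 1.87% of all 32851 promoters in the reference. ETS letters stood in 5 (11.1%), against 6.79% and 3.89%, and YY1 letters in 7 (15.6%), against 4.15% and 2.75%. At least 1 of these 3 motifs was present in 17 member promoters (37.8%), against 13.9% of promoters with a peak and 8.07% of all. The GC box was less common among members (48.9%) than among promoters with a peak (65.8%) and stood in 35.7% of all promoters, and CCAAT was found in 44.4%, against 37.5% and 37.4%. A match describes the letters of the window and not a bound site.

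NRF1 letters were found at Mrpl10, Mrpl17, Mrpl22, Mrpl39 and Mrps18b. ETS letters were found at Mrpl18, Mrpl27, Mrpl48, Mrps18c and Mrps26, and YY1 letters at Mrpl35, Mrpl36, Mrpl42, Mrpl49, Mrps11, Mrps12 and Mrps18a. The 17 members with any of the 3 motifs had a median change from P4 to P28 of 1.23 on the log2(RPKM + 1) scale, and the 28 without had 1.27. The median GC content was 58.7% in members and 61.7% in promoters with a peak, and the ratio of observed to expected CpG was 0.82 and 0.761. All promoters of the reference had a median ratio of 0.384.

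All 50 member peaks covered an annotated start of their own gene, as did the peaks of 90.3% of all genes with a promoter peak. In 13 of 50 (26%) the same peak also covered the start of a gene on the opposite strand, which was so for 755 of the 9956 genes (7.58%). The pairs were Mrpl30 with Mitd1, Mrps5 with Zfp661, Mrps18c with Helq, Mrps12 with Sars2, Mrps11 with Mrpl46, Mrpl27 with Eme1, Mrpl10 with Lrrc46, Mrpl18 with Tcp1, Mrps18b with Ppp1r10, Mrpl14 with Tmem63b, Mrpl2 with Klc4, Mrpl21 with Ighmbp2 and Mrpl49 with Fau. Of these partners, Sars2 is the mitochondrial seryl-tRNA synthetase and Mrpl46 is itself a mitochondrial ribosomal protein gene, and Fau encodes a cytosolic ribosomal protein. At such peaks the mark cannot be assigned to either gene. The 13 shared peaks had a median change of 1.37 from P4 to P28 with 4 called, and the other 37 had 1.28 with 9 called. In all genes the median change was 1.34 and 32.8% were called higher. Member peaks were 363 to 1848 bases wide, with a median of 945 bases, against 1150 bases over all genes.

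**Figure D1:**
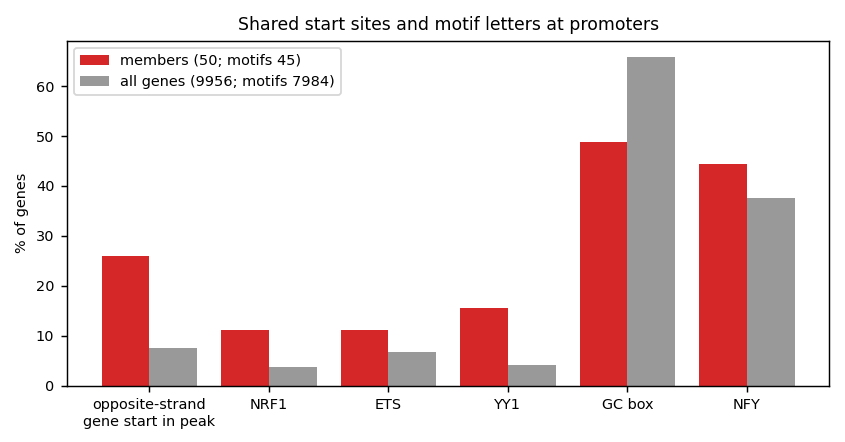
Share of genes, in percent, whose promoter peak covers the start of an opposite-strand gene, or whose RefSeq promoter holds the letters of each motif, for members (50, or 45 matched promoters for motifs) and all genes with a promoter peak (9956, or 7984). Bars of members stand higher for shared starts (26% against 7.58%) and for NRF1, ETS and YY1 letters, and lower for the GC box (48.9% against 65.8%).

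The median level of H3K18La over the members was below that of all genes with a promoter peak at every age. Levels are given as RPKM, reads per kilobase of peak, divided by the normalised library size, so they can be compared between peaks. The median member had 1.02 RPKM at P4, 1.71 at P10 and 3.77 at P28, against 1.61, 2.82 and 4.95 for the median gene with a promoter peak. At P28, 20 of 50 members lay above the median gene and 3 were within the top 10% of genes. A pooled level was also taken, as the reads of all peaks of a group per kilobase of their summed width, on the same scale. For the 50 members it was 1.49 and 1.24 RPKM in the P4 libraries and 2.45 and 3.04 in the P10 libraries. In the P28 libraries it was 4.61, 4.80 and 5.74 RPKM. Every P28 library was above both P10 libraries, and both P10 libraries were above both P4 libraries. Scaled to reads in peaks, the pooled levels were 9.15 and 7.03 at P4, 6.79 and 5.84 at P10 and 10.9, 9.44 and 10.1 at P28. P10 was then the lowest age and P28 still the highest. Counting error alone gave 95% intervals (exact Poisson) of 1.27 to 1.75 and 1.01 to 1.51 RPKM at P4, from 155 and 98 reads. At P10 they were 1.89 to 3.13 and 2.62 to 3.52 RPKM, from 64 and 182 reads. Relative to the pooled level of all genes in the same library, the members stood at 77.1% and 61.4% in the P4 libraries. They stood at 58.6% and 58.4% in the P10 libraries and at 70.8%, 68.2% and 71.1% in the P28 libraries. The P28 percentages lay between those of the P4 libraries, and the P10 percentages were below all others. With so few reads at these ages, whether P10 differs from P4 replicate 2 was not tested.

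Pooled levels were also taken by role, as a description with no test. The 14 small subunit proteins with a bacterial relative had the highest mean pooled level of the 4 classes. It was 2.11 ± 0.04 RPKM over the 2 libraries of P4, 3.23 ± 0.22 over the 2 of P10 and 6.45 ± 0.53 over the 3 of P28 (mean ± SD). At P10 this order did not hold in each library, since the 5 small subunit proteins found only in mitochondria had 1.97 and 4.31 RPKM and the former class 3.08 and 3.39. Relative to the pooled level of all genes in the same libraries, the class of 14 stood at 106.7% ± 5.2 at P4, 69.3% ± 6.0 at P10 and 89.9% ± 8.4 at P28. Its median member had 5.88 RPKM at P28, against 4.95 for the median gene. The 9 large subunit proteins found only in mitochondria had the lowest mean. At P4 they had 1.28 and 0.458 RPKM, of which the first was above the 1.16 RPKM of the mitochondria-specific small subunit class in the same library. At P28 they had 3.77 ± 0.60 RPKM, which was 52.2% ± 3.2 of the level of all genes at P28. At P28 every library of the small subunit class with a bacterial relative was above every library of this class, while the 21 large subunit proteins with a bacterial relative (4.66 ± 0.64 RPKM) and the 5 small subunit proteins found only in mitochondria (4.48 ± 0.60 RPKM) overlapped between libraries.

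**Figure D2:**
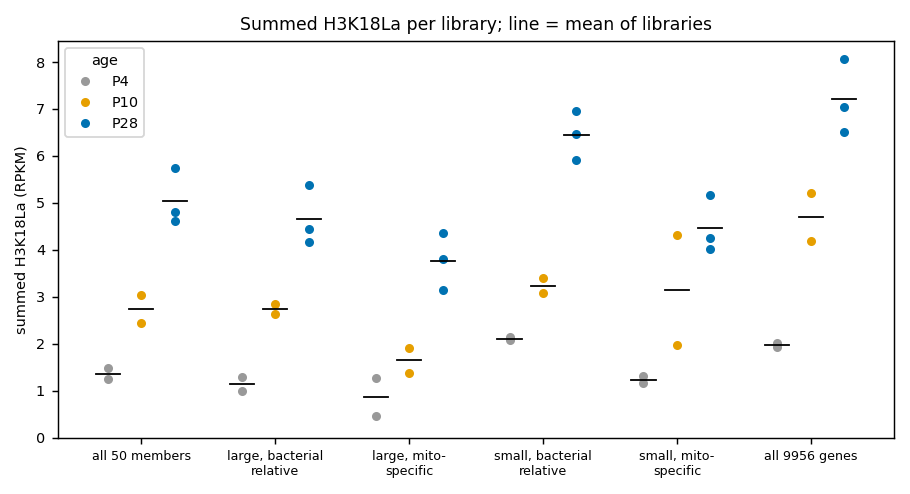
Pooled H3K18La level of each group, in RPKM, with 1 point per library and a line at the mean of each age. The level, named summed on the axis, is the reads of all peaks of a group per kilobase of their summed width. In all 50 members the libraries run from 1.24 to 1.49 at P4, 2.45 to 3.04 at P10 and 4.61 to 5.74 at P28. They lie below the pooled level of all 9956 genes at each age.

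Among single members, Mrpl45 (chr11:97315534-97315896), whose protein sits by the exit tunnel and holds the ribosome at the inner membrane, had the highest level at P28, with 14.5, 16.1 and 21.9 RPKM in the 3 libraries. Mrpl11, a protein of the base of the factor-binding stalk, followed with 16.0, 14.3 and 20.4 RPKM, and Mrps28, a small subunit protein, with 15.2, 14.3 and 16.3 RPKM. The libraries of these 3 genes overlapped one another, so their order is not resolved. The lowest members at P28 were Mrpl21 with 0.639, 1.20 and 1.54 RPKM, Mrps30 with 1.11, 1.69 and 1.82 RPKM, and Mrpl35 with 1.53, 1.98 and 1.85 RPKM. These overlapped one another as well, and each lay below every library of the highest members. The coefficient of variation of a member across the P28 libraries had a median of 18.2%, from 2.88% to 51.9%.

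**Figure D3:**
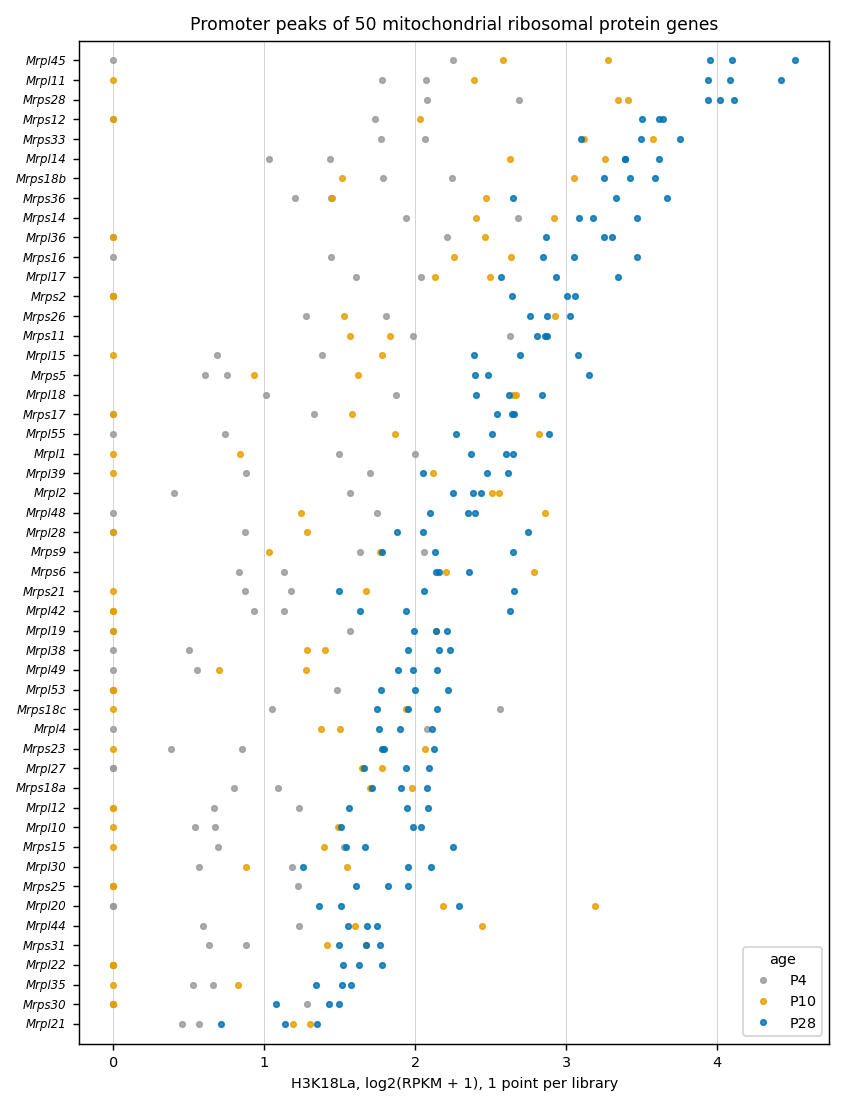
H3K18La at the promoter peak of each of the 50 members, as log2(RPKM + 1), with 1 point per library (2 at P4, 2 at P10, 3 at P28) and members ordered by their mean RPKM at P28. Mrpl45, Mrpl11 and Mrps28 stand at the top and Mrpl21, Mrps30 and Mrpl35 at the bottom, and points at 0 are P4 and P10 libraries without a read, which can cover one another.

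The first comparison asked how the mark changed between the early postnatal and the mature retina. From P4 to P28, 13 of the 50 members (26.0%) rose and none fell, among them Mrpl45, Mrps2, Mrps12, Mrps16 and Mrpl14, with differences from 1.53 to 3.06 on the log2(RPKM + 1) scale. A change was called in a limma fit over all 108253 peaks at a Benjamini-Hochberg adjusted p under 0.01. By this rule 18.9% of all peaks and 32.8% of the 9956 genes (3263) rose, so the share among members was above that of all peaks and below that of genes. The median difference of the members was 1.31, against 1.34 over all genes, of which 28 fell. All 50 members had a positive fitted difference, as did 8974 of the 9956 genes. Among the members this held for 48 of 50 with each library centred on its median. It held for 40 of 50 with libraries scaled to their reads in peaks. In 46 of 50 every P28 library was above both P4 libraries, and this was so in 79.3% of all genes. At an unadjusted p under 0.05, 35 members (70%) were higher and none was lower, and 64.6% of the genes were higher by the same rule.

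These counts depended on single libraries and on the scaling. Leaving out 1 library at a time gave 1 member called (without P4 replicate 1) to 25 called (without either P10 library, which enters this contrast only through the pooled spread). Within batch 1, that is without P28 replicate 1, 5 members were called. Scaled to reads in peaks, the median differences were 0.36 for members and 0.30 for all genes, and 3 members were called.

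**Figure D4:**
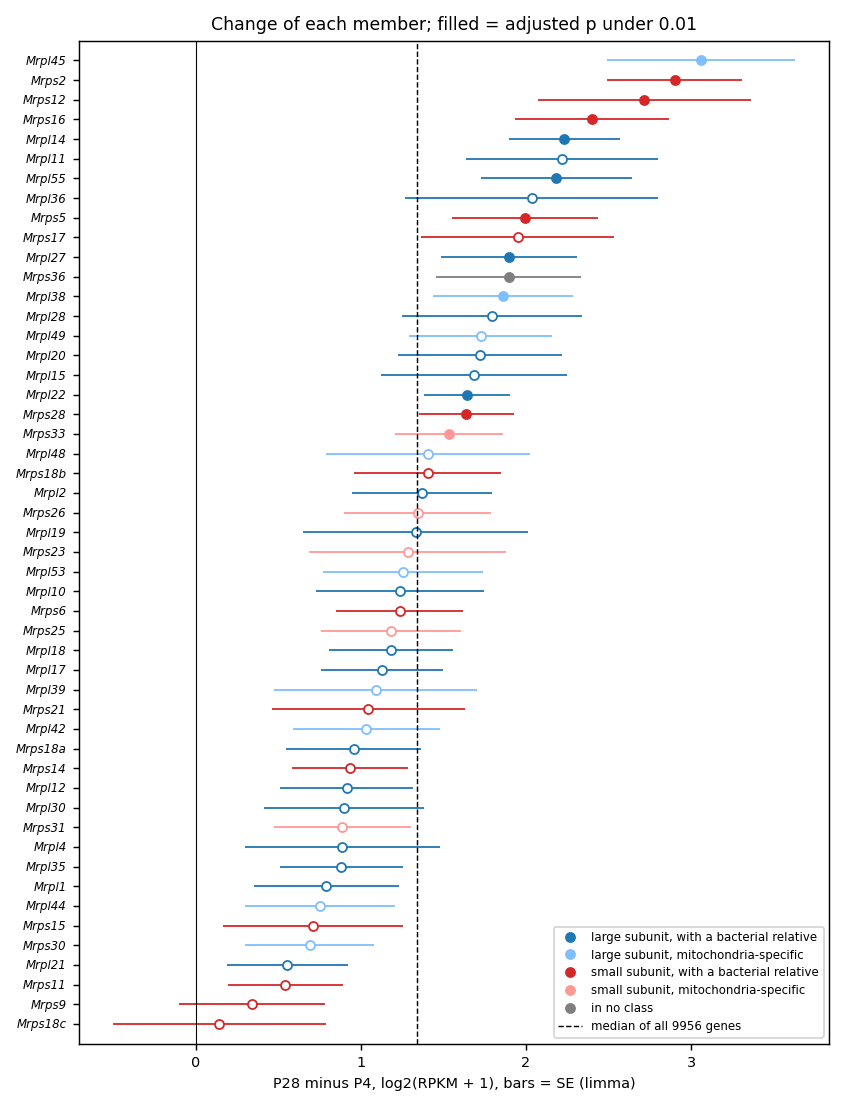
Difference between P28 and P4 of each member on the log2(RPKM + 1) scale, with its standard error from limma, coloured by role, filled where the adjusted p was under 0.01. The 13 filled points lie between 1.53 and 3.06, and the dashed line is the median of all 9956 genes (1.34). With libraries scaled to reads in peaks, 10 of the 50 differences were not positive.

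The early reads set the precision of these differences. Both P4 libraries had 3 reads or fewer at 32 of the 50 members (64.0%), against 39.7% of all genes. Both P10 libraries were that low at 33 (66.0%), against 40.8% of all genes. No member was that low in all P28 libraries. A peak entered the merged table if it was called at 1 age, so a member with few early reads could enter through P28 alone. Mrps2 and Mrpl22, without a read at P4 and P10, could enter in no other way, so the direction of these 2 of the 13 calls was set by that step. Of the 13 calls, 10 were at members with 3 reads or fewer in both P4 libraries. Mrpl27, with no read at P4 and 1 and 2 at P10, was close to the same case. So were Mrps12, Mrps5, Mrpl38 and Mrpl55, with at most 3 reads in any P4 or P10 library. A member without a P4 read could not fall from P4. At P4, 4 members had no read at all (Mrps2, Mrpl20, Mrpl22 and Mrpl27), as had 270 of the 9956 genes. With such ages set to 3 reads per library, the level that low counts still allow, the median difference between P28 and P4 was 0.75 for members and 1.04 for all genes.

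From P4 to P28, 32.8% of all genes rose, with a median difference of 1.34. Among the 21 large subunit proteins with a bacterial relative, 4 rose (19.0%), with a median of 1.33. The largest difference was at Mrpl14 (chr17:45684906-45686653), a conserved protein on the subunit interface, with 1.04 and 1.71 RPKM at P4, 5.16 and 8.57 at P10 and 9.46, 9.46 and 11.3 at P28. Its libraries did not overlap between any 2 ages. The difference between P28 and P4 was 2.23 ± 0.34 (SE, adjusted p = 0.000911), and the pooled reads, 9 at P4, gave a ratio of 7.43 (95% exact interval 3.88 to 16.3). Mrpl14 was called in 13 of 15 settings of the analysis, all but the scaling to reads in peaks and the fit without P4 replicate 1.

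Mrpl11 had 2.44 and 3.20 RPKM at P4, 0 and 4.23 at P10 and 16.0, 14.3 and 20.4 at P28. Its P28 libraries were far above all others, and the P10 libraries lay on both sides of P4. The difference of 2.22 ± 0.58 did not pass (adjusted p = 0.0134). Mrpl55 had 0 and 0.667 RPKM at P4, 6.06 and 2.65 at P10 and 3.81, 4.67 and 6.38 at P28, and rose by 2.18 ± 0.46 (adjusted p = 0.00467), a call lost in 9 of 14 alternatives, among them each fit without a P4 or a P28 library. Mrpl55 was listed in this class although its protein is named among the mitochondria-specific ones. Moving it left 3 of 20 called here (median 1.28) and 3 of 10 in the class that follows (median 1.33).

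The smallest differences of the class were at Mrpl1, the protein of the mobile stalk at the exit of transfer RNA, and at Mrpl21. Mrpl1 had 1.82 and 2.99 RPKM at P4, 0 and 0.791 at P10 and 5.26, 5.06 and 4.16 at P28, and its difference from P4 to P28 was 0.79 ± 0.44 (adjusted p = 0.166). It was lower in both P10 libraries than in either P4 library and higher in every P28 library. Mrpl21 had 0.369 and 0.484 RPKM at P4, 1.47 and 1.28 at P10 and 0.639, 1.20 and 1.54 at P28. Its P10 mean (1.37 RPKM) was above its P28 mean (1.13 RPKM). The difference from P4 to P28 was 0.55 ± 0.37 (adjusted p = 0.24). Mrpl22, which lines the exit tunnel, had no read in any P4 or P10 library and 2.43, 2.09 and 1.87 RPKM at P28. Its fitted difference was 1.64 ± 0.26 (adjusted p = 0.0012), in a direction that peak calling had fixed. Libraries without a read add no spread to the fit, so this SE does not measure precision at P4 or P10. The P28 level was 0.874 times the level that 3 reads per library would give at P4, while the pooled reads gave a lower bound of 1.35 for the ratio (95% exact interval). At Mrpl27, also without P4 reads and so unable to fall, the P28 level was 1.29 times that of 3 reads per library at P4. Its pooled reads gave a lower bound of 1.88 for the ratio (95% exact interval).

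Among the 9 mitochondria-specific large subunit proteins, 2 rose (22.2%, against 32.8% of all genes), with a median difference of 1.25, against 1.34. Mrpl45 had 3.76 and 0 RPKM at P4, 4.97 and 8.69 at P10 and 14.5, 16.1 and 21.9 at P28. The ages did not overlap, and the difference from P4 to P28 was 3.06 ± 0.57 (adjusted p = 0.00252), resting on 3 reads at P4. The pooled reads gave a ratio of 8.04 with a 95% exact interval of 2.70 to 39.4. Mrpl45 did not pass in 6 of 14 alternatives, namely without P4 replicate 2, without any single P28 library, with a pseudocount of 0.1 and scaled to reads in peaks (adjusted p = 0.0504).

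Mrpl38 had 0.413 and 0 RPKM at P4 and 2.86, 3.69 and 3.45 at P28, and rose by 1.86 ± 0.42 (adjusted p = 0.00693), a call lost in 9 of 14 alternatives, each fit without a P4 or a P28 library included. Mrpl49 shares its peak with Fau and had 0 and 0.471 RPKM at P4 and 2.69, 2.96 and 3.41 at P28, a difference of 1.73 ± 0.43 (adjusted p = 0.0109). All P28 libraries of both genes were above their P4 and P10 libraries. Mrps30, a large subunit protein despite its symbol, had 1.44 and 0 RPKM at P4, no read at P10 and 1.11, 1.69 and 1.82 RPKM at P28, so P28 and P4 overlapped (0.69 ± 0.39, adjusted p = 0.176). Mrpl44, whose fold is that of a double-stranded RNA nuclease, had 0.511 and 1.34 RPKM at P4, 2.03 and 4.43 at P10 and 2.36, 2.21 and 1.94 at P28. Its highest library was of P10, and its difference from P4 to P28 was 0.75 ± 0.46 (adjusted p = 0.203).

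Among the 14 small subunit proteins with a bacterial relative, 5 rose (35.7%, against 32.8% of all genes). The median differences were 1.32 and 1.34. Mrps2 (chr2:28467890-28468318), a conserved protein of the small subunit, had no read in the 4 libraries of P4 and P10 and 7.34, 7.02 and 5.23 RPKM at P28. As at Mrpl22, libraries without a read add no spread to the SE. The P28 level was 1.78 times that of 3 reads per library at P4. The fitted difference was 2.90 ± 0.41 (adjusted p = 0.000678), again in a direction fixed by peak calling. It did not pass without P4 replicate 1 or without P4 replicate 2.

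Mrps12, a protein of the decoding centre that shares its peak with Sars2, had 2.33 and 0 RPKM at P4, 3.08 and 0 at P10 and 10.3, 11.2 and 11.5 at P28. The P28 libraries agreed closely and stood above all others, and the difference was 2.72 ± 0.65 (adjusted p = 0.00852), resting on 3 reads at P4. Mrps16 had 0 and 1.72 RPKM at P4, 5.20 and 3.78 at P10 and 10.1, 6.19 and 7.29 at P28, in steps that did not overlap, and rose by 2.40 ± 0.47 (adjusted p = 0.00312). Both calls were lost in at least 7 of 14 alternatives. Mrps18c had 4.89 and 1.07 RPKM at P4, 0 and 2.83 at P10 and 2.36, 2.87 and 3.41 at P28, so the ages overlapped (0.14 ± 0.64, adjusted p = 0.871), and the sign turned under both scalings and without P4 replicate 2.

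Mrps9, Mrps11, Mrps14, Mrps18b and Mrps28 were among the members with the most P4 reads and are the best measured at that age. Mrps28 (chr3:8923172-8924157) had 3.23 and 5.45 RPKM at P4, 9.15 and 9.59 at P10 and 15.2, 14.3 and 16.3 at P28, without overlap between ages. It rose by 1.64 ± 0.29 (adjusted p = 0.00194), and 16 P4 reads gave a ratio of 3.56 (95% exact interval 2.16 to 6.29). The call was lost in 4 of 14 alternatives, and scaled to reads in peaks the difference was 0.28 (adjusted p = 0.424). Mrps9 had 2.11 and 3.17 RPKM at P4, 2.39 and 1.05 at P10 and 2.44, 3.38 and 5.27 at P28, and its ages overlapped (0.34 ± 0.44, adjusted p = 0.55). With 15 P4 reads its ratio of pooled reads was 1.43 (95% exact interval 0.838 to 2.62).

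Mrps11, which shares its peak with Mrpl46, had 2.96 and 5.18 RPKM at P4, 1.96 and 2.57 at P10 and 6.26, 6.33 and 5.99 at P28. The P10 libraries were the lowest and the P28 libraries the highest (0.54 ± 0.35, adjusted p = 0.228). Mrps14 had 5.40 and 2.84 RPKM at P4 and 7.49, 8.04 and 10.1 at P28 (0.93 ± 0.35, adjusted p = 0.0546). Mrps18b had 3.74 and 2.45 RPKM at P4 and 9.71, 8.53 and 11.005 at P28 (1.40 ± 0.45, adjusted p = 0.0296), and Mrpl17 of the large subunit had 3.11 and 2.04 RPKM at P4 and 4.93, 6.62 and 9.15 at P28 (1.13 ± 0.37, adjusted p = 0.0331). All 3 had every P28 library above both P4 libraries without passing. Of the 7 members with 10 or more P4 reads, Mrps28 and Mrps33 passed, with differences of 1.64 and 1.53, and of the 5 with 9 reads Mrpl14 passed. None of these 3 passed when scaled to reads in peaks. Over all genes, at any depth, 32.8% rose.

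Among the 5 mitochondria-specific small subunit proteins, 1 rose (20.0%, against 32.8% of all genes). This was Mrps33, with 2.42 and 3.18 RPKM at P4, 7.69 and 10.9 at P10 and 7.54, 10.3 and 12.5 at P28. P10 and P28 overlapped, and both were above P4 (1.53 ± 0.33, adjusted p = 0.0051, for P28). This call was lost in 7 of 14 alternatives, with a difference of 0.25 (adjusted p = 0.432) when scaled to reads in peaks. The other members, Mrps26, Mrps23, Mrps25 and Mrps31, had differences of 1.34, 1.28, 1.18 and 0.89 with adjusted p from 0.0354 to 0.11. In each of these 4 all P28 libraries were above both P4 libraries. Mrps36, now known as a subunit of the 2-oxoglutarate dehydrogenase complex and therefore placed in no class, had 1.30 and 1.71 RPKM at P4 and 5.27, 9.05 and 11.7 at P28 (1.89 ± 0.44, adjusted p = 0.00766), and was called in 6 of 15 settings.

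The comparisons with P10 asked when the change took place. From P4 to P10, 2 of 50 members rose, Mrpl14 and Mrpl20, and none fell, while 11.4% of all peaks and 11.1% of the genes rose. The median difference was 0.34 for members and 0.54 for all genes, and turned to -0.31 and -0.33 when libraries were scaled to reads in peaks. With voom the medians were 1.13 and 1.02, so the members were not below all genes in every setting. Both P10 libraries were above both P4 libraries in 20 members (40%) and below them in 4 (8%), against 45.3% and 9.2% of all genes. Mrpl14 differed by 1.71 ± 0.37 (adjusted p = 0.0066). Mrpl20 had no P4 read, 8.12 and 3.55 RPKM at P10 and 1.57, 1.84 and 3.88 at P28, so its P10 mean was its highest (2.69 ± 0.54 from P4, adjusted p = 0.00504). This rests on 3 reads in each P10 library against none at P4, from which it could not fall. No member was called from P4 to P10 in any of the 5 fits that left out 1 P4 or 1 P28 library.

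From P10 to P28, limma called no member, and 0.00185% of all peaks (2 of 108253) rose. At an unadjusted p under 0.05, 21 members (42%) were higher and none was lower, against 38.1% of the genes higher. At an adjusted p of 0.05, 9 members passed, against 15.3% of the genes, and limma voom on the reads recovered from RPKM called 2, against 4.31% of the genes. The median difference was 1.03 for members and 0.75 for all genes. Every P28 library was above both P10 libraries in 31 members (62%) and below them in 1 (2%), against 55% and 5.74% of all genes. With ages at 3 reads or fewer set to 3 reads per library, the medians were -0.23 and 0.25, so neither the size nor the sign of the members' difference was resolved at the depth of P10. The mean level at P10 lay between those of P4 and P28 in 32 members (64%), below P4 in 12 (24%) and above P28 in 6 (12%), against 59.5%, 25.7% and 17.2% of all genes. A change over the 3 ages, by limma's moderated F-test, was called for 12 members, against 24.6% of all peaks and 28.8% of the genes. This count was 0 without P4 replicate 2, 1 without P4 replicate 1, 2 without any single P28 library, and 23 and 29 without P10 replicate 1 and 2.

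**Figure D5:**
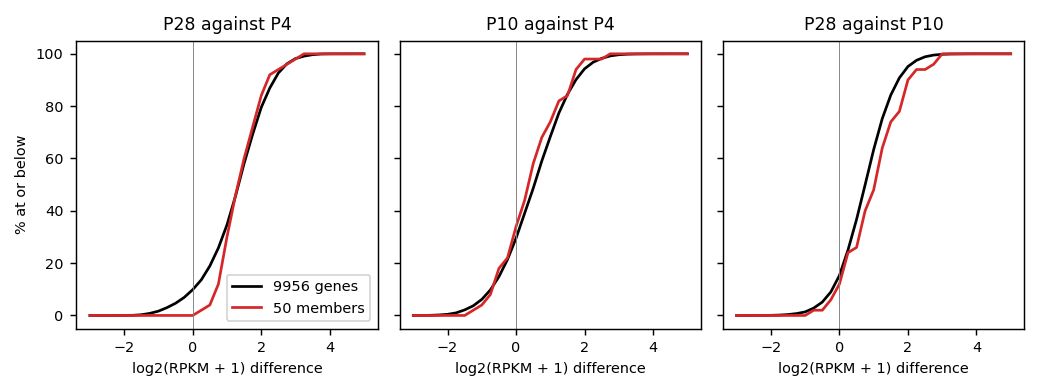
Cumulative share, in percent, of the 50 members and of all 9956 genes at or below each log2(RPKM + 1) difference, for the 3 pairs of ages. The curves lie close for P28 against P4 (medians 1.31 and 1.34), with members to the left for P10 against P4 (0.34 and 0.54) and to the right for P28 against P10 (1.03 and 0.75). Neither offset kept its sign in all of 17 settings. The members' median minus that of all genes ran from -0.365 to 0.11 for P10 against P4 and from -0.48 to 0.43 for P28 against P10. With libraries scaled to reads in peaks the P10 against P4 medians were -0.31 and -0.33.

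Several of these genes are known from inherited mitochondrial disease in people. Of 15 such genes listed, 9 were members and 3 rose from P4 to P28 (Mrps2, Mrps16 and Mrps28, described above), with a median difference of 1.18 over the 9 and the smallest at Mrpl44 (0.75). Over all genes 32.8% rose, and the direction at Mrps2 was fixed by peak calling.

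The other machinery of mitochondrial translation was set beside the members, by promoter peak and with the same fit, in which 32.8% of all genes rose with a median difference of 1.34. Of mitochondrial ribosomal proteins with other symbols, 2 of 5 had a promoter peak, Aurkaip1 with a difference of 1.78 and Chchd1 with 0.86, and neither passed. Of the translation factors, which start, extend and end the chain, 10 of 17 had a peak and none passed, with a median of 1.30, from 0.38 at the recycling factor gene Mrrf to 1.56 at the release factor gene Mtrf1. Of the factors that assemble the ribosome or modify its RNA, 11 of 26 listed symbols had a peak and 2 rose. The symbols Mtg2 and Gtpbp5 in this list name the same gene. The median was 1.14, the largest difference 2.31 at Mpv17l2 and the smallest 0.01 at Rpusd4. The list of mitochondrial aminoacyl-tRNA synthetases also held Qrsl1, Gatb and Gatc, which are subunits of the glutamyl-tRNA amidotransferase. Of its genes, 17 of 22 had a peak and 3 rose, with a median of 1.36, the largest 2.32 at Vars2 and the smallest 0.49 at Yars2. No member of these lists fell.

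Of the genes for mitochondrial transcription and its nuclear regulators, 11 of 15 had a peak and 3 rose, with a median of 0.94. The largest difference was 2.61 at the nuclear receptor gene Esrra and the smallest 0.57 at Gabpa, a subunit of the ETS factor GABP. Among subunits of oxidative phosphorylation, which include the partners of the proteins made on mitochondrial ribosomes, 20 of 57 rose (35.1%), with a median of 1.48, the largest 3.15 at Ndufv1 and the smallest 0.01 at Cox7c. Among cytosolic ribosomal proteins, 9 of 55 rose (16.4%), with a median of 1.24 and the smallest difference, 0.08, at Rps12. The pooled level at P28 was 5.05 ± 0.61 RPKM in the members, 5.50 ± 0.63 in the cytosolic ribosomal proteins and 6.43 ± 0.94 in oxidative phosphorylation subunits (SD, n = 3), against 7.21 ± 0.80 over all genes.

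The rule left out part of the family. RefSeq lists 78 protein-coding Mrpl and Mrps genes, of which 28 were not members. At 19 of the 28 a peak nonetheless lay from 1000 bases before to 500 bases after an annotated start, 14 assigned to a neighbouring gene and 5 to a non-coding transcript of the gene itself. From P4 to P28, 5 of these 19 peaks rose and none fell, with a median difference of 1.08, against 18.9% of all peaks and 32.8% of the genes: those at Mrpl54 (2.55, assigned to Apba3), Mrpl33 (2.36, Gm43809, without a P4 read and so unable to fall), Mrpl34 (2.13, Abhd8), Mrpl37 (1.96, Cyb5rl) and Mrpl51 (1.84). The peak at Mrpl46 is the peak of Mrps11. At the other 9 genes (Mrpl16, Mrpl24, Mrpl3, Mrpl43, Mrpl52, Mrpl58, Mrps10, Mrps22 and Mrps34) no merged peak lay in this window. Mrpl48 had 2 promoter peaks at distance 0 from annotated starts, of which the peak centred nearer its start was kept (difference 1.41), while the other had a difference of 0.65 ± 0.54 (adjusted p = 0.352).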

How the data were processed

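H3K18La CUT&Tag reads of mouse retina were processed by the authors, who mapped them to GRCm38, called peaks with MACS, merged the peaks of the 3 ages and annotated them with ChIPseeker 1.34.1. Labels name pA-MNase and the methods pA-Tn5 as the tethered enzyme. The authors deposited RPKM per merged peak and library, scaled by a library size normalised over large genomic windows. Their table of fold changes and p-values from edgeR 3.40.2, and a list of peak positions, were not used. The members, gene lists and naming rule were chosen with earlier results of these data known. Mrpl20, Mrpl22, Mrpl27 and Mrps36 were named after their values were seen.

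In each library, multiplying RPKM by the width of the peak and dividing by the step between values gave whole reads at 100% of peaks (tolerance 0.02 reads). Summed over 1 Mb bins, reads of the P4 libraries differed by more than sampling (chi-square per degree of freedom 1.21, p = 7.22e-13). Without molecular identifiers this cannot show that they came from separate animals. Both were counted as replicates because they are labelled so. limma 3.58.1 (R 4.3.3), with a variance trend, was fitted on log2(RPKM + 1) to all 108253 peaks and 7 libraries with age as factor and no filter. This scale understates changes of low peaks. Calls used a Benjamini-Hochberg adjusted p under 0.01. The fit was tried on simulated data in which few peaks changed and the share of reads in peaks was otherwise the same at every age. There it made no false call but missed most of the changes, and its pass mark was lowered after a first failure. Because the data differ in both respects, the trial does not measure false calls in the real fit. Intervals and floors cover counting error only, since reads carry no molecular identifiers. Named in full were the 3 largest and 2 smallest differences of each role class, the 8 members with most P4 reads (of 5 tied at place 8, Mrpl1 came first by symbol), the 3 highest and 3 lowest at P28, and called disease genes. In the other lists, the largest and smallest differences were named, except 1 result that is not reported here. Start sites came from GENCODE vM21 and promoters from RefSeq GRCm38.p6. Alternatives changed the pseudocount, a filter on low values, the scaling, the test, the peak kept per gene, the replicate block and each library in turn.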

Additional observations from a re-analysis of the deposited data

How the results depend on the processing

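Every P4 and P10 library had fewer reads in peaks than any P28 library. Counts of calls moved with most settings, while the direction of the median from P4 to P28 did not turn in the settings tried. From P4 to P28, members called higher numbered 13 as reported (all genes 3263) and 7 with a pseudocount of 0.1 (2190), 5 with median centring (2128), 3 scaled to reads in peaks (695), 21 with voom (5233), 26 at an adjusted p under 0.05 (5492) and 1 to 25 without 1 library (897 to 5476). Their median difference (1.31, all genes 1.34) was 2.14 with a pseudocount of 0.1, 0.64 with 4, 0.78 centred, 0.36 scaled, 1.75 with voom, 0.75 with ages at the floor set to 3 reads, and 1.15 to 1.39 without 1 library. The floor setting, the looser threshold and the scaled pooled levels were chosen after seeing the data.

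From P4 to P10, members called higher (2, all genes 1105) numbered 11 at an adjusted p under 0.05 (2349), 1 with a pseudocount of 4 (863), 1 scaled (225), 6 with voom (1327) and 0 to 3 without 1 library (240 to 1434). Members called lower (0, all genes 92) numbered 2 when scaled (502) and 0 to 1 without 1 library (12 to 250). The median (0.34, all genes 0.54) was 0.095 centred (0.29), -0.31 scaled (-0.33), 1.13 with voom (1.02) and 0.90 at the floor setting (0.86). It was 0.24 to 0.66 without 1 library, and without P4 replicate 1 it was 0.52, against 0.51 for all genes. From P10 to P28, members called higher (0, all genes 0) numbered 9 at an adjusted p under 0.05 (1526), 2 with median centring (113), 2 with a pseudocount of 0.1 (58), 3 with 4 (229), 2 with voom (429) and 0 to 11 without 1 library (0 to 2019). The median (1.03) was 0.76 centred, 1.47 with a pseudocount of 0.1, 0.46 with 4, 0.78 with voom, -0.23 at the floor setting and 0.72 to 1.17 without 1 library. Members called across ages (12, all genes 2871) numbered 30 at an adjusted p under 0.05 (5790), 6 centred (2241), 7 with a pseudocount of 0.1 (1714), 4 scaled (1027), 21 with voom (5081) and 0 to 29 without 1 library (218 to 6050). The causes were not tested.

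Of the named members, signs turned when scaled to reads in peaks at Mrpl1 (-0.42), Mrpl21 (-0.10), Mrpl44 (-0.13), Mrps9 (-0.88), Mrps18c (-1.02), Mrps11 (-0.77), Mrps14 (-0.40) and Mrpl17 (-0.13), with centring at Mrps9 (-0.18) and Mrps18c (-0.38), and without P4 replicate 2 at Mrps18c (-0.61). Of the 362 values of named members under alternatives, 282 kept direction and side of the threshold, 54 lost the call, 15 gained it and 11 turned.

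The sources do not say that replicate numbers mark shared animals, and deviations of same-numbered libraries correlated with r from -0.001 to 0.047, so the numbers were not treated as pairs. With a replicate block, P28 replicate 3 has a level of its own and so drops out. Under this block, 6 members were called higher from P4 to P28 (all genes 1793) and 3 across ages (1434).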
